A study of Homo sapiens with 4 samples.

Results

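Solute carriers (SLC) are the largest group of membrane transport proteins in human cells. The set described here holds the 40 probes whose symbol in the study's lists of changed genes began with SLC and a number, out of 47293 probes on the array, of which 12374 passed the filter on low values. The lists held here named genes that rose or fell with OCT4 silencing and genes that rose with NANOG silencing. The genes listed as changed with SOX2 silencing, and the last of those that fell with NANOG silencing, were not analysed here. Of the 40 members, 23 came from the list of genes risen with OCT4 silencing, 13 from the list fallen with it, and 4 from the NANOG list alone, and 3 of the 36 OCT4 members were on the NANOG list as well. Each member was 1 probe, and each of the 40 passed the filter. The choice thus rests on the arrays of the OCT4 and NANOG knock-downs set against mock, so every change against mock given for these members is a description without a test.

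The arrays measured RNA of NCCIT cells, a human embryonal carcinoma line that was derived from a germ cell tumour and grows in an undifferentiated state. There were 4 groups of 3 biological replicates, 12 arrays in all, harvested at day 2.5 by the labels, where the methods name other days. Mock cells received the transfection reagent Hyperfect alone. The 3 knock-down (k.d.) groups received the same reagent with esiRNA, enzymatically prepared small interfering RNA, against the OCT4, NANOG or SOX2 message. Because mock cells carried no esiRNA, the loss of a target and the presence of any esiRNA cannot be told apart in comparisons with mock, whereas the comparison of 2 knock-downs has esiRNA on both sides. All groups are 1 cell line, and these are bulk samples, in which fewer cells of a type and less RNA per cell cannot be told apart.

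OCT4, NANOG and SOX2 are transcription factors that hold embryonic stem and embryonal carcinoma cells undifferentiated. Solute carriers move amino acids, sugars, ions, nucleosides and other small molecules across the plasma membrane and the membranes of organelles, by facilitated diffusion, exchange, or cotransport with sodium or protons. They are numbered by family according to sequence, so that members of a family can differ in substrate, and some members of family SLC7 form exchangers in which a light chain pairs with a heavy chain glycoprotein.

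The probe for POU5F1, which encodes OCT4, averaged 611 normalised signal units in mock cells and 33.1 in the OCT4 k.d., where 1 of 3 arrays still detected it. It averaged 457 in the NANOG k.d. and 30.4 in the SOX2 k.d. (detected on 0 of 3 arrays). The NANOG probe averaged 342 in mock cells and 95.1 in the NANOG k.d., against 29.7 and 27.8 in the OCT4 and SOX2 knock-downs. The SOX2 probe was not analysed here. The 8 probes for 7 embryonal carcinoma markers were detected on all mock arrays, and their summed signal ran from 22900 to 24200 in mock cells, 16200 to 17400 in the NANOG k.d., 4990 to 5880 in the OCT4 k.d. and 4840 to 5390 in the SOX2 k.d. The sum over 6 mesoderm markers, a list the study picked on these samples, ran from 695 to 737, 2050 to 2510, 6390 to 6550 and 5410 to 6060 in the same order. Of the 6, 4 were at background on all mock arrays. HAND1 made up most of each sum, with means of 577, 2116, 5313 and 4493. In the NANOG k.d. ACTA2, ACTC, COL1A1, MSX1 and RUNX1 averaged 34.7, 31.5, 28.3, 39.9 and 21.8. Their mock means were 37.3, 24.5, 25.35, 29.4 and 22.9. These markers thus moved with the OCT4 and SOX2 groups, as most members did, and their part in the changes below was not tested. Arrays detected 11196 to 12858 probes each and correlated at 0.992 to 0.997 within a group.

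Against mock, the members lay on the same sides in the OCT4 and SOX2 knock-downs, and fewer of them differed in the NANOG k.d. Signals are given after background correction and quantile normalisation with 16 units added, so that fold changes of dim probes are understated, and a probe counts as detected above a detection score of 0.99. In the OCT4 k.d., 18 of the 40 were more than 1.5-fold higher and 13 more than 1.5-fold lower than in mock cells, where 14% and 10.8% of all probes tested lay past these bounds. In the SOX2 k.d. the counts were 17 and 13 (13.6% and 10.5% of all probes), and in the NANOG k.d. 8 and 4 (5.29% and 4.38% of all probes). Since the members were picked for such changes, these counts say only how the set is made up. All 40 had the same sign in the OCT4 and SOX2 knock-downs, which share the mock arrays, and 12 had the opposite sign in the NANOG and OCT4 knock-downs. Past 1.5-fold, 22 members differed from mock with OCT4 and not with NANOG silencing, 7 differed the same way in both, 3 differed with NANOG silencing alone, and SLC1A3 and SLC7A8 lay on opposite sides of mock. SLC4A2 (1.34-fold) and SLC9A3R2 (1.39-fold) were among the OCT4 members with the smallest changes, and 7 of the 36 lay under the 1.5-fold of the lists when the signals were processed as here. Probes just outside the lists carry no gene name here. The SD between replicate arrays had a median of 0.11 on the log2 scale over all members and groups, and its highest value was 0.477, for SLC2A10 in the SOX2 k.d.

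**Figure D1:**
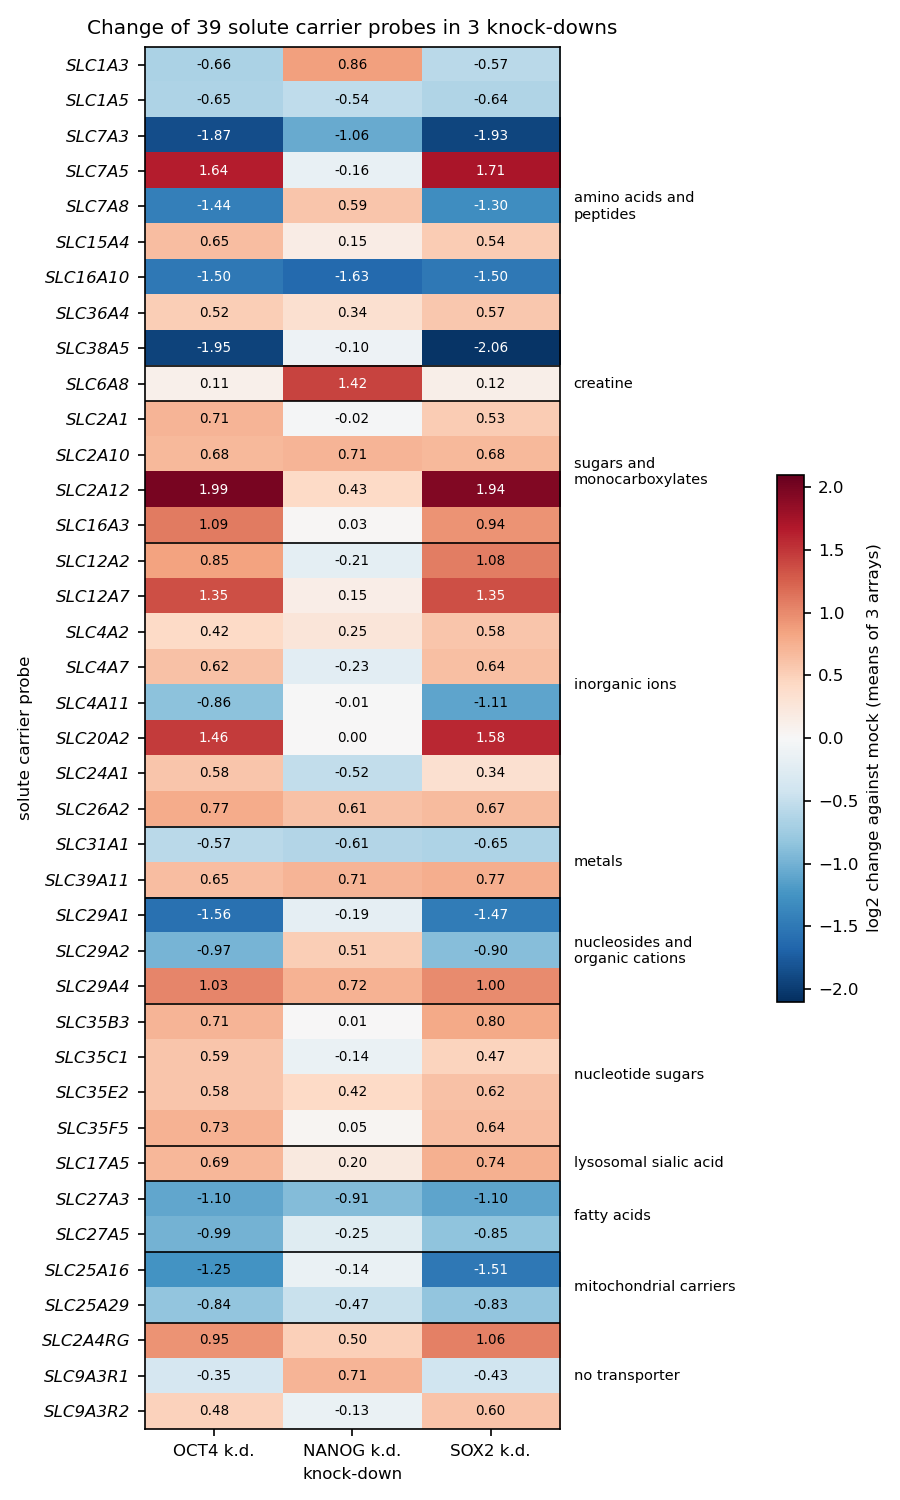
Log2 change of 39 of the 40 solute carrier probes (rows, grouped by substrate) against mock with OCT4, NANOG and SOX2 silencing (columns), as differences between means of 3 arrays, with red for higher and blue for lower than mock. The OCT4 and SOX2 columns have the same sign in all 39 rows, while the NANOG column is paler in most rows and has the opposite sign from OCT4 in 11.

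Between the OCT4 and SOX2 knock-downs few probes of the array were called. Among the members, the largest difference between group means was 0.26 on the log2 scale, for SLC25A16, the smallest was 0.0015, for SLC12A7, and the arrays of both groups overlapped for 35 of the 40 members. Of all 12374 probes tested, 0.0647% were called different between these groups, where called means an adjusted p under 0.01 (limma, Benjamini-Hochberg over all probes tested) and a change of at least 1.5-fold, and the arrays of 16.7% did not overlap.

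The SOX2 and NANOG knock-downs offered a comparison without the OCT4 and mock arrays that placed the 36 OCT4 members on their lists. It was still close to the comparison of OCT4 k.d. and mock that chose them. OCT4 and SOX2 arrays correlated at 0.99 to 0.995 and NANOG and mock arrays at 0.972 to 0.982, beside 0.931 to 0.938 for OCT4 and mock arrays. Agreement with the lists thus follows in good part from the choice, and so do the adjusted p-values given below for single members. SLC7A8, SLC29A4 and SLC39A11 were on the NANOG list as well, though the OCT4 list alone makes them members. For these the NANOG arrays were not apart from the listing. Of the 36 members, 21 were called different between the SOX2 and NANOG knock-downs, 13 higher and 8 lower in the SOX2 k.d. Over all probes tested 21.2% were called, 11.6% higher and 9.58% lower. These shares cover listed and unlisted probes alike, so they do not set solute carriers against other listed genes. All 13 called higher came from the 23 genes listed as risen with OCT4 silencing, and all 8 called lower from the 13 listed as fallen. The median difference was 0.61 on the log2 scale over the risen list and -0.87 over the fallen list, beside -0.05 over all probes tested. Each of the 23 risen genes was higher in the SOX2 k.d. mean, with arrays above those of the NANOG k.d. for 18, and 12 of the 13 fallen genes were lower, with arrays below for 10. Arrays did not overlap in these directions for 25.9% and 31.7% of all probes. The exception was SLC16A10, which was lower than mock in all 3 knock-downs. The same marker probes as above separated the SOX2 and NANOG groups, and their part was not tested.

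**Figure D2:**
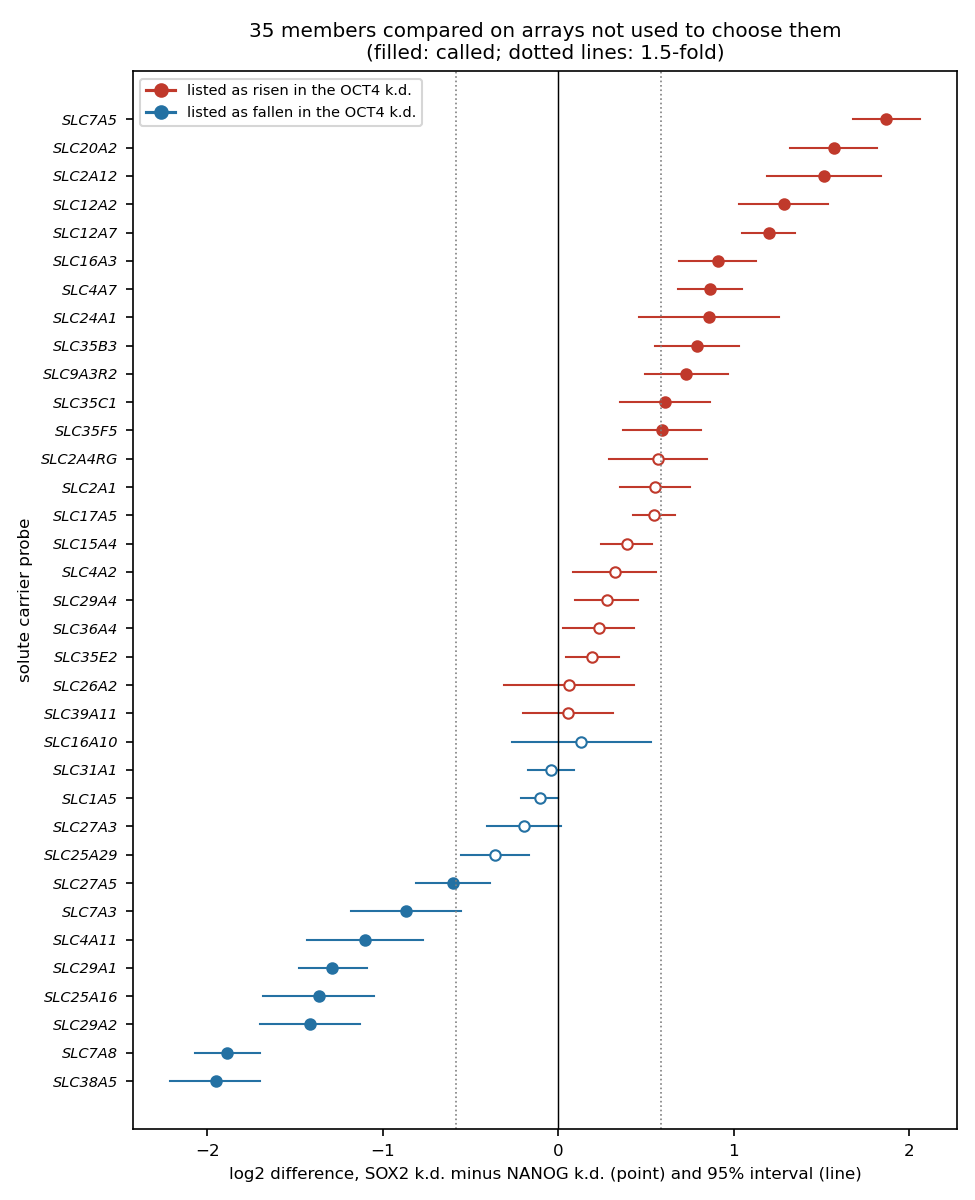
Log2 difference between the SOX2 and NANOG knock-downs (horizontal axis, point and 95% interval from the fit, 3 arrays a group) for 35 of the 36 members chosen through the OCT4 knock-down, in red for genes listed as risen and blue for genes listed as fallen. Filled points passed an adjusted p of 0.01 and 1.5-fold, which 12 red and 8 blue points did, and SLC16A10 is the one blue point to the right of 0.

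The calls rested in part on the background correction, since without it the number called was 10 in place of 21, with SLC7A3, SLC16A3, SLC4A11, SLC24A1, SLC35B3, SLC35C1, SLC35F5, SLC27A5, SLC25A16 and SLC9A3R2 among those then under 1.5-fold. Single arrays decided calls close to 1.5-fold. SLC35C1 was under it without NANOG replicate 3 (0.57 on the log2 scale) or SOX2 replicate 1 (0.56), SLC35F5 without SOX2 replicate 1 (0.54) or 2 (0.52), and SLC27A5 without NANOG replicate 3 (-0.58). In turn SLC2A1 passed it without SOX2 replicate 2 (0.59), and SLC2A4RG without NANOG replicate 2 (0.65) or SOX2 replicate 2 (0.62).

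The proximal promoters of the set were read from RefSeq (GRCh38.p14) as the 250 bases before each annotated start, for 33 of the 40 genes and 55 starts. SLC7A3, SLC4A11, SLC20A2, SLC29A2, SLC35E2 and SLC25A16 were among those with no match. The E-box CACGTG, which reads the same on both strands, stood in the window of 10 of the 33 genes (30.3%), beside 9.73% of 15843 protein-coding genes, and in 20% of the members' starts beside 7.37% of coding starts. Median GC content was 67.6% over the members' windows and 62% over those of coding starts. The letters ATGCAAAT of the octamer bound by OCT4 and CATTGTT of a SOX site, sought on both strands, were found in 0 of the 33 genes, beside 2.15% and 2.78% of coding genes. TGATGCAA, the core of the amino acid response element, was found for SLC1A3 and SLC1A5 (6.06% of the genes beside 0.802% of coding genes), TGACGTCA for SLC31A1 and SLC35F5 (6.06% beside 2.73%), and TATAAA for SLC2A1 (3.03% beside 11.9%). The genes with an E-box were SLC1A5, SLC4A2, SLC7A5, SLC7A8, SLC12A7, SLC26A2, SLC29A1, SLC35C1, SLC38A5 and SLC39A11, of which SLC1A5, SLC7A8, SLC29A1 and SLC38A5 were listed as fallen and the other 6 as risen. The windows of SLC7A5, which was higher than mock, and of SLC38A5 and SLC29A1, which were lower, are shown because these members had the largest changes in the OCT4 k.d. among those with the motif. They are written 5′ to 3′ on the gene's strand and end at the base before the start, with the E-box in capitals. A match of these letters is a description of the sequence.
SLC7A5, chr16:87869508-87869757, minus strand: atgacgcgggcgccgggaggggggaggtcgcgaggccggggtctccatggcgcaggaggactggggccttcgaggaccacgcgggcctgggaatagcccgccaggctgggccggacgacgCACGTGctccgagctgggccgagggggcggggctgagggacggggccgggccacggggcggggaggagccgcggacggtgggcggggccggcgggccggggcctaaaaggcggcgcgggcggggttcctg
SLC38A5, chrX:48470261-48470510, minus strand: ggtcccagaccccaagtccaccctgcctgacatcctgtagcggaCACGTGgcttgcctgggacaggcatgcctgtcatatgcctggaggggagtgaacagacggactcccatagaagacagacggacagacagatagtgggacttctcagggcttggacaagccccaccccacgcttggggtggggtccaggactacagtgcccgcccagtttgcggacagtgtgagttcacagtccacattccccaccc
SLC29A1, chr6:44219365-44219614, plus strand: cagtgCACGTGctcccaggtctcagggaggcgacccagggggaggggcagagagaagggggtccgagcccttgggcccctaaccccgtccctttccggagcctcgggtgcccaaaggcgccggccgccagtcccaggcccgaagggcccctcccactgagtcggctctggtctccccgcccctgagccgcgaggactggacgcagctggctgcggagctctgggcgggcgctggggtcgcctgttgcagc
The motif lies 125 to 130 bases before the start of SLC7A5, 201 to 206 before that of SLC38A5 and 240 to 245 before the shown start of SLC29A1. The window of the other annotated start of SLC29A1 held no match. A gene with several starts was counted if any of their windows held the motif.

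Amino acid and peptide transporters, with 9 members, went both ways. Against mock, 2 were more than 1.5-fold higher and 6 lower in the OCT4 k.d., 1 and 5 in the SOX2 k.d., and 2 and 2 in the NANOG k.d. Of all probes tested, 14% and 10.8%, 13.6% and 10.5%, and 5.29% and 4.38% lay past these bounds. SLC7A5, SLC15A4 and SLC36A4 were listed as risen with OCT4 silencing, SLC1A3 with NANOG silencing alone, and the others as fallen. The directions thus follow in good part from the choice and do not describe the substrate class. SLC7A5 encodes the light chain of LAT1, an exchanger that imports large neutral amino acids such as leucine. Its normalised signal was 1411, 1368 and 1084 on the mock arrays, 3538, 4375 and 4096 in the OCT4 k.d., 1128, 1123 and 1179 in the NANOG k.d. and 4167, 4078 and 4299 in the SOX2 k.d. Every OCT4 and SOX2 array lay above every mock and NANOG array. The mean was 3.12-fold above mock in the OCT4 k.d. and 3.27-fold in the SOX2 k.d., and the SOX2 k.d. exceeded the NANOG k.d. 3.66-fold (1.87 ± 0.09 log2 ± SE, adjusted p = 4.4e-12). SLC7A8, the light chain of the related exchanger LAT2, gave 232, 226 and 213 in mock cells, 83.2, 79.4 and 85.3 in the OCT4 k.d., 317, 354 and 336 in the NANOG k.d. and 97.9, 88.6 and 86.0 in the SOX2 k.d. NANOG arrays were the highest and OCT4 and SOX2 arrays the lowest, with no overlap between these and mock. The change against mock was -1.44 ± 0.09, 0.59 ± 0.09 and -1.30 ± 0.09 log2 ± SE with OCT4, NANOG and SOX2 silencing. The SOX2 k.d. lay 3.70-fold below the NANOG k.d. (adjusted p = 2.8e-12), though SLC7A8 was on the NANOG list too, so its NANOG arrays were part of the listing. The heavy chain of both exchangers was not analysed here.

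SLC7A3 encodes the cationic amino acid transporter CAT3, which takes up arginine and lysine. It read 97.8, 97.7 and 77.4 in mock cells, 44.8, 44.4 and 41.1 in the NANOG k.d., and 26.3, 23.7 and 24.4 and 27.1, 23.1 and 21.4 in the OCT4 and SOX2 knock-downs, where no array detected it. Mock arrays were the highest, NANOG arrays lay between, and none of the 4 groups but OCT4 and SOX2 overlapped. Here and below, a bound counts an undetected array at the lowest signal of a detected probe, or at its own signal where higher. That lowest signal ran from 28.5 to 46.1 over the arrays and undetected probes could lie above it, so bounds are approximate. So counted, SLC7A3 was at least 2.47-fold lower than mock in the OCT4 k.d. and at least 2.55-fold lower in the SOX2 k.d. Between the knock-downs, the fit put it 1.825-fold lower with SOX2 than with NANOG silencing (adjusted p = 9.3e-05). Its bound there was at least 1.22-fold, under 1.5-fold, so its call rests on signals of undetected arrays. SLC38A5 encodes SNAT5, a sodium-coupled carrier of neutral amino acids such as glutamine. Its signals were 136, 144 and 142 in mock cells and 126, 144 and 124 in the NANOG k.d., against 40.3, 34.9 and 34.4 in the OCT4 k.d. and 35.5, 34.7 and 31.4 in the SOX2 k.d. Mock and NANOG arrays overlapped and stood far above the rest. The OCT4 k.d. was 3.85-fold below mock with 1 of 3 arrays detecting the probe. The SOX2 k.d., with none, was at least 3.83-fold below mock and at least 3.57-fold below the NANOG k.d. (3.87-fold in the fit, adjusted p = 2e-10). SLC7A3 and SLC38A5 passed the filter only through the mock and NANOG groups, where they were higher.

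SLC16A10 encodes TAT1, a carrier of aromatic amino acids. It gave 98.2, 107 and 113 in mock cells, 32.9, 39.5 and 40.2 in the OCT4 k.d., 31.2, 26.2 and 48.9 in the NANOG k.d. and 40.8, 38.7 and 33.4 in the SOX2 k.d. The 3 knock-downs overlapped, all below mock, and detected the probe on only 2, 1 and 1 of 3 arrays. They were 2.83-fold, 3.09-fold and 2.82-fold lower, and the difference between SOX2 and NANOG silencing had a 95% interval of -0.26 to 0.53 log2 (adjusted p = 0.58). SLC1A3, which encodes the glutamate and aspartate transporter EAAT1, was 1 of the 4 members listed with NANOG silencing alone. Its signals were 316, 366 and 381 in mock cells, 203, 223 and 247 in the OCT4 k.d., 638, 604 and 679.6 in the NANOG k.d. and 209.5, 280.2 and 230.2 in the SOX2 k.d. NANOG arrays stood above mock and OCT4 and SOX2 arrays below it, with no overlap, by 0.86 ± 0.11, -0.66 ± 0.11 and -0.57 ± 0.11 log2 ± SE. Without scaling between arrays the OCT4 change against mock was 0.12 in place of -0.66.

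The other amino acid members were under 2-fold from mock in each knock-down. SLC1A5, the glutamine exchanger ASCT2, was 1.56-fold, 1.45-fold and 1.56-fold lower than mock with OCT4, NANOG and SOX2 silencing, with all knock-down arrays below mock, and SOX2 and NANOG silencing differed by -0.10 ± 0.05 log2 ± SE (adjusted p = 0.089). SLC15A4, a lysosomal carrier of histidine and peptides, was 1.57-fold higher than mock with OCT4 and 1.45-fold with SOX2 silencing, and its SOX2 over NANOG difference of 0.39 ± 0.07 (adjusted p = 0.00012) was under 1.5-fold. SLC36A4, the amino acid carrier PAT4, was 1.44-fold and 1.48-fold higher than mock in these groups and 1.26-fold higher in the NANOG k.d., and its SOX2 over NANOG difference was 0.23 ± 0.10 (adjusted p = 0.05).

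**Figure D3:**
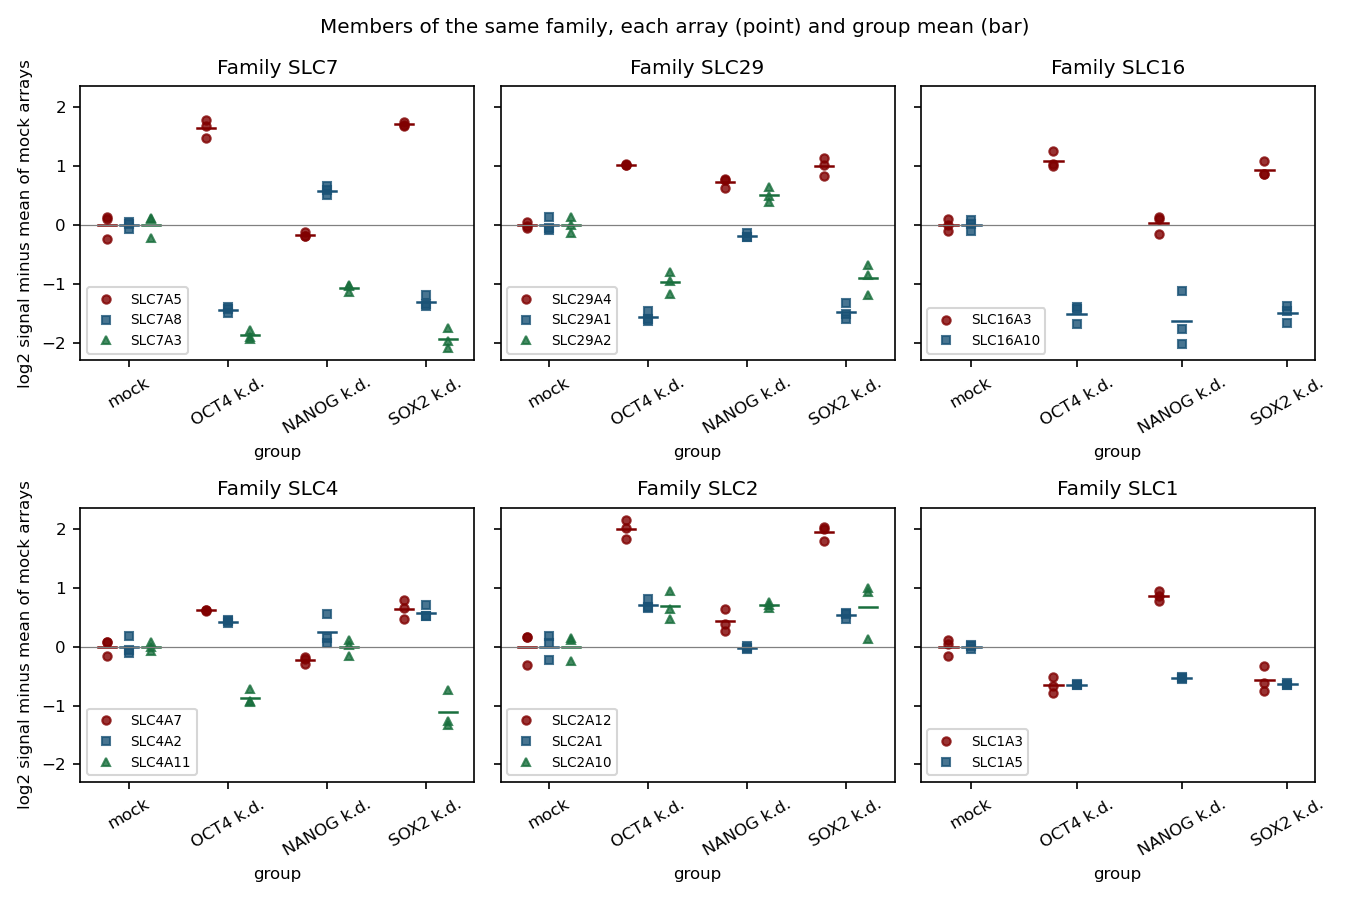
Log2 signal minus the mean of the mock arrays (vertical axis) for members of 6 SLC families in the 4 groups, with a point for each array, a bar for the mean of 3 arrays and a symbol for each gene. In families SLC7, SLC29, SLC16 and SLC4 some members lie above and others below 0 in the OCT4 and SOX2 knock-downs, and SLC1A3 and SLC7A8 lie on opposite sides of 0 in the NANOG and OCT4 knock-downs.

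All 4 carriers of sugars and monocarboxylates in the set were more than 1.5-fold above mock in the OCT4 k.d., 3 in the SOX2 k.d. and 1 in the NANOG k.d. Of all probes tested, 14%, 13.6% and 5.29% lay past this bound. SLC2A1, SLC2A12 and SLC16A3 were listed as risen with OCT4 silencing and SLC2A10 with NANOG silencing. The shared direction thus follows in part from the choice and does not describe the substrate class. SLC2A12 encodes the glucose transporter GLUT12. It was not detected on any mock array (34.1, 24.6 and 34.3) and read 123, 108 and 136 in the OCT4 k.d., 39.7, 47.7 and 36.8 in the NANOG k.d. and 122, 125 and 106 in the SOX2 k.d. OCT4 and SOX2 arrays overlapped at the top, and NANOG arrays lay just above mock. The probe was at least 3.18-fold above mock with OCT4, at least 3.07-fold with SOX2 and at least 1.07-fold with NANOG silencing. The lowest signal of a detected probe was 28.6 on mock replicate 2, beside 46.1 and 42.8 on the other mock arrays. The NANOG bound depends on that low value. SOX2 exceeded NANOG 2.86-fold (adjusted p = 1.9e-07). SLC2A12 passed the filter only through the OCT4 and SOX2 groups, where it was higher. SLC16A3 encodes MCT4, the lactate carrier of glycolytic cells. It gave 125, 109 and 116 in mock cells, 238, 277 and 232 in the OCT4 k.d., 128, 125 and 105 in the NANOG k.d. and 212, 212 and 247 in the SOX2 k.d. Here too mock and NANOG arrays overlapped below the other groups, and SOX2 exceeded NANOG 1.88-fold (adjusted p = 7.7e-07). SLC2A1, the glucose transporter GLUT1 of most cells, was 1.64-fold above mock in the OCT4 k.d. and 1.45-fold in the SOX2 k.d., its SOX2 and NANOG arrays did not overlap, and the difference of 0.55 ± 0.10 log2 ± SE (adjusted p = 9.3e-05) was just under 1.5-fold.

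Of 9 carriers of inorganic ions, 5 were more than 1.5-fold above mock and 1 below in both the OCT4 and the SOX2 knock-downs, and 1 above in the NANOG k.d. Of all probes tested, 14% and 10.8%, 13.6% and 10.5%, and 5.29% above lay past these bounds in the same order. SLC4A11 was listed as fallen with OCT4 silencing and the others as risen. The directions thus follow in good part from the choice and do not describe the substrate class. SLC20A2 encodes the sodium-coupled phosphate carrier PiT2. Its signals were 122, 105 and 118 in mock cells, 292, 357 and 305 in the OCT4 k.d., 93.4, 125 and 130.4 in the NANOG k.d. and 373, 321 and 335 in the SOX2 k.d. The NANOG mean differed from mock by 0.00 ± 0.12 log2 ± SE, and every OCT4 and SOX2 array was higher. The SOX2 k.d. exceeded the NANOG k.d. 2.98-fold (1.57 ± 0.12 log2 ± SE, adjusted p = 2.8e-09). The cation-chloride cotransporters SLC12A2 and SLC12A7 bring chloride into cells and out of them, respectively. SLC12A7, which encodes KCC4, read 364, 343 and 340.4 in mock cells, 859.6, 908 and 899 in the OCT4 k.d., 360.1, 415 and 386 in the NANOG k.d. and 872, 854 and 939.5 in the SOX2 k.d., so that SOX2 exceeded NANOG 2.30-fold (adjusted p = 7.8e-11). SLC12A2, which encodes NKCC1, read 80.5, 109.6 and 96.2, 189, 168 and 156, 89.0, 84.0 and 73.7 and 207, 216 and 178 in the same order, with SOX2 2.44-fold above NANOG (adjusted p = 8e-08). Both were thus higher with SOX2 than with NANOG silencing, and in both the mock and NANOG arrays overlapped.

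In the bicarbonate transporter family, SLC4A11, listed as fallen with OCT4 silencing, went the other way from SLC4A2 and SLC4A7, listed as risen. It gave 77.3, 82.2 and 73.4 in mock cells, 40.8, 40.2 and 47.1 in the OCT4 k.d., 79.2, 83.3 and 69.7 in the NANOG k.d. and 46.8, 30.8 and 32.4 in the SOX2 k.d. The OCT4 and SOX2 arrays were lowest and did not reach the mock or NANOG arrays, and 1 of 3 SOX2 arrays detected the probe. The SOX2 k.d. lay 2.14-fold below the NANOG k.d. (adjusted p = 1.3e-05). SLC4A7, the sodium-bicarbonate cotransporter NBCn1, was instead 1.82-fold higher with SOX2 than with NANOG silencing (adjusted p = 1.4e-07), and SLC4A2, the chloride-bicarbonate exchanger AE2, 1.25-fold (adjusted p = 0.022, arrays overlapping). SLC24A1, an exchanger of sodium for calcium and potassium, was 1.81-fold higher with SOX2 than with NANOG silencing (adjusted p = 9e-04), and was detected on 2 of 3 NANOG arrays. It passed the filter only through the OCT4 and SOX2 groups, where it was higher. SLC26A2, a sulphate transporter, was not detected on any mock array and was at least 1.39-fold, 1.24-fold and 1.3-fold above mock with OCT4, NANOG and SOX2 silencing, though 1 SOX2 array did not detect it and lay within the mock arrays. Its SOX2 to NANOG difference was 0.06 ± 0.18 log2 ± SE (adjusted p = 0.79).

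The metal carriers were among the members with like differences from mock in all 3 knock-downs. SLC39A11, of the ZIP zinc transporter family, read 77.2, 94.8 and 71.2 in mock cells, 142, 108 and 132 in the OCT4 k.d., 128, 139.6 and 128 in the NANOG k.d. and 145, 131 and 134 in the SOX2 k.d. All knock-down arrays were above mock, by 1.57-fold, 1.64-fold and 1.70-fold in the mean. SLC31A1, the copper importer CTR1, was lower than mock on all knock-down arrays, by 1.49-fold, 1.52-fold and 1.57-fold. Between SOX2 and NANOG silencing the 95% interval of the difference was -0.20 to 0.31 log2 for SLC39A11 and -0.17 to 0.09 for SLC31A1, and neither was called.

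Within family SLC29 the nucleoside transporters of the set were lower than mock with OCT4 and SOX2 silencing and the cation transporter was higher. SLC29A1 and SLC29A2 were listed as fallen with OCT4 silencing and SLC29A4 as risen, so this split follows in good part from the choice. Other genes of the family were not examined. SLC29A1 encodes ENT1, the main equilibrative nucleoside transporter. It gave 369, 323 and 317 in mock cells, 111, 109 and 122 in the OCT4 k.d., 304, 290.1 and 291 in the NANOG k.d. and 118, 111 and 135 in the SOX2 k.d. OCT4 and SOX2 arrays were lowest with no overlap, and the SOX2 k.d. lay 2.44-fold below the NANOG k.d. (-1.29 ± 0.09 log2 ± SE, adjusted p = 1.3e-09). SLC29A2, which encodes ENT2, had 151, 137 and 125 in mock cells, 61.0, 71.6 and 79.2 in the OCT4 k.d., 181, 216 and 192 in the NANOG k.d. and 60.6, 76.1 and 86.3 in the SOX2 k.d. Its NANOG arrays were above mock and its OCT4 and SOX2 arrays below, and SOX2 was 2.66-fold lower than NANOG (adjusted p = 7.7e-08). SLC29A4, the monoamine and organic cation transporter PMAT, read 136, 144 and 134 in mock cells, 278, 283 and 280.5 in the OCT4 k.d., 213, 236 and 234 in the NANOG k.d. and 281, 246 and 302 in the SOX2 k.d., above mock in each. Its SOX2 to NANOG difference of 0.28 ± 0.08 log2 ± SE was not called (adjusted p = 0.011).

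Family SLC35 supplies the Golgi and endoplasmic reticulum with nucleotide sugars and the sulphate donor PAPS. Its 4 members here, all listed as risen with OCT4 silencing, were higher than mock on every OCT4 and SOX2 array. So were 29.9% and 27.7% of all probes in the respective groups. SLC35B3, a carrier of PAPS, read 104, 128 and 134 in mock cells, 184, 198 and 215 in the OCT4 k.d., 137, 105 and 126 in the NANOG k.d. and 208, 221 and 205 in the SOX2 k.d. Mock and NANOG arrays overlapped, and SOX2 was 1.73-fold above NANOG (adjusted p = 1.2e-05). SLC35C1, the GDP-fucose carrier, and SLC35F5 were 1.52-fold and 1.51-fold above (adjusted p = 4e-04 and 0.00013), close to the threshold, and SLC35E2 was 1.15-fold above and not called (adjusted p = 0.029). SLC17A5, which encodes sialin and exports sialic acid from lysosomes, had 757, 769.8 and 807 in mock cells, 1254, 1259 and 1256 in the OCT4 k.d., 871, 904 and 900.1 in the NANOG k.d. and 1308, 1331 and 1266 in the SOX2 k.d. None of the 4 groups overlapped another, and the SOX2 to NANOG difference, 1.46-fold (adjusted p = 2.9e-07), was under 1.5-fold.

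The fatty acid and mitochondrial members all came from the list fallen with OCT4 silencing, so their place below mock there follows from the choice. Their means were below mock with NANOG and SOX2 silencing as well. Other genes of these families were not examined. SLC27A3, a fatty acid transport protein with acyl-CoA synthetase activity, read 612, 559 and 677 in mock cells, 262, 301 and 301 in the OCT4 k.d., 345, 315 and 322 in the NANOG k.d. and 337, 262 and 264 in the SOX2 k.d. All knock-down arrays were below mock, and SOX2 and NANOG arrays overlapped (difference -0.19 ± 0.10 log2 ± SE, adjusted p = 0.12). SLC27A5, a synthetase of bile acid and long-chain acyl-CoA, was 1.51-fold lower with SOX2 than with NANOG silencing (adjusted p = 7.2e-05). SLC25A16, a carrier of the mitochondrial inner membrane, gave 129, 119.8 and 139 in mock cells, 47.9, 61.8 and 53.9 in the OCT4 k.d., 116, 119 and 115 in the NANOG k.d. and 46.1, 56.3 and 36 in the SOX2 k.d. NANOG arrays lay just below mock, and SOX2 lay 2.57-fold below NANOG (adjusted p = 4.1e-07, detected on 2 of 3 SOX2 arrays). SLC25A29, a mitochondrial carrier of basic amino acids, was 1.78-fold, 1.39-fold and 1.78-fold lower than mock with OCT4, NANOG and SOX2 silencing, and its SOX2 to NANOG difference of -0.36 ± 0.09 (adjusted p = 0.0032) was under 1.5-fold.

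The 4 members listed with NANOG silencing alone were compared between the OCT4 and SOX2 knock-downs, on arrays other than those of the NANOG and mock groups that listed them, although their absence from the OCT4 lists also drew on OCT4 arrays. None of the 4 was called, beside 0.0647% of all probes, and 0 of them had an unadjusted p under 0.05 against 1218 of 12374 probes. With so few probes called, 0 of 4 cannot set these members apart from other probes. SLC6A8, the creatine transporter, was the member furthest above mock in the NANOG k.d. It read 109, 112 and 68.7 in mock cells, 96.5, 113 and 97.8 in the OCT4 k.d., 241, 289 and 231 in the NANOG k.d. and 101, 104 and 103 in the SOX2 k.d. Only NANOG arrays stood apart, 2.67-fold above mock, and OCT4 and SOX2 differed by -0.01 ± 0.15 log2 ± SE (95% interval -0.32 to 0.31, adjusted p = 0.99). For SLC1A3 the interval of the OCT4 to SOX2 difference was -0.31 to 0.13 log2 (adjusted p = 0.86), and for SLC2A10, which encodes GLUT10, -0.40 to 0.41 (adjusted p = 1). SLC2A10 was 1.60-fold, 1.63-fold and 1.60-fold above mock with OCT4, NANOG and SOX2 silencing, with 1 low SOX2 array among 95.2, 90.8 and 52.5 that overlapped mock (40.4, 53.2 and 51.6).

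Of the members, 3 carry an SLC symbol without being transporters. SLC9A3R1, the PDZ scaffold NHERF1, was listed with NANOG silencing alone. It was 1.63-fold higher than mock in the NANOG k.d. and 1.28-fold and 1.34-fold lower in the OCT4 and SOX2 knock-downs, with no overlap with mock, and OCT4 and SOX2 differed by -0.07 to 0.21 log2 (95% interval, adjusted p = 0.82). Its relative SLC9A3R2, the scaffold NHERF2, was 1.66-fold higher with SOX2 than with NANOG silencing (adjusted p = 2.7e-05). SLC2A4RG, a transcription factor named for its action on the glucose transporter gene SLC2A4, gave 56.5, 72.6 and 77.3 in mock cells, 149.6, 132 and 116 in the OCT4 k.d., 94.9, 108 and 86.8 in the NANOG k.d. and 152, 133 and 143 in the SOX2 k.d. All knock-down arrays were above mock, and the SOX2 over NANOG difference, 1.48-fold (adjusted p = 0.0015), was just under 1.5-fold.

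**Figure D4:**
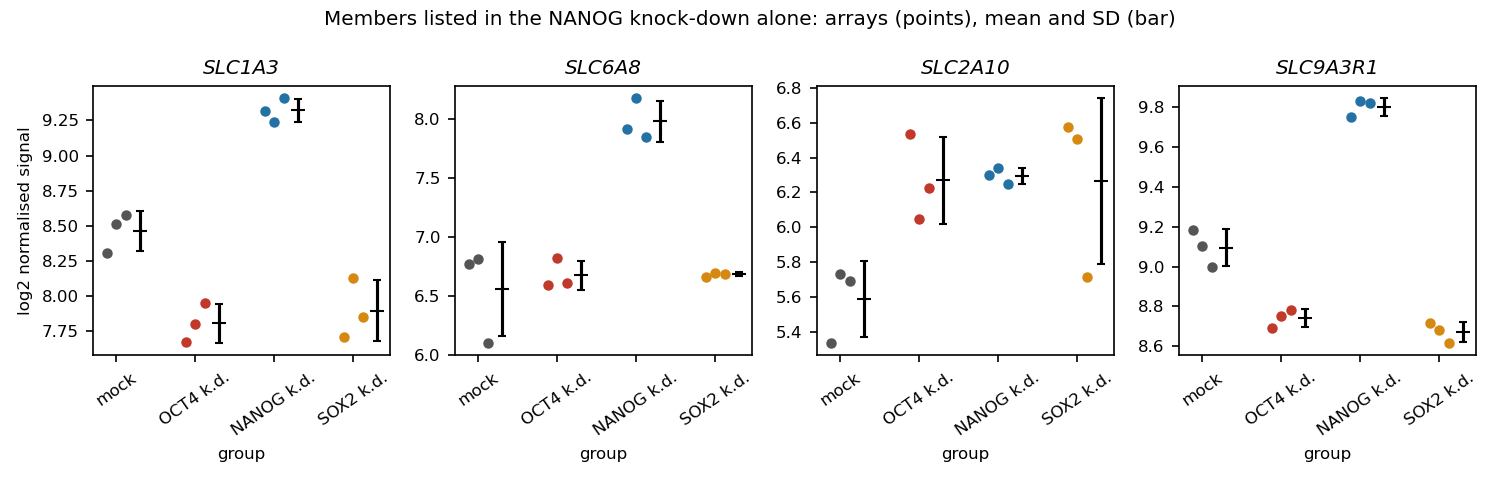
Log2 normalised signal (vertical axis) of the 4 members listed with the NANOG knock-down alone in the 4 groups, with a point for each array and a bar for the mean and SD of 3 arrays. NANOG arrays stand apart at the top for SLC1A3, SLC6A8 and SLC9A3R1, and OCT4 and SOX2 arrays overlap for all 4.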

How the data were processed

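Total RNA of the 4 groups was amplified, labelled and hybridised to 1-colour Illumina BeadChips. The deposited array files hold, per the file headers, a mean bead signal (intensity) for each probe and a detection score, both exported by the authors from BeadStudio 1.0. The intensity values were not background-subtracted, with a lowest value of 55.2. The deposited value table holds the authors' group means after background subtraction and rank-invariant normalisation (intensity) and was used only as an alternative without a test.

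Here the 12 arrays were background-corrected by normal-exponential convolution with an offset of 16 using the detection scores, quantile-normalised and put on the log2 scale. Probes with a detection score over 0.99 on all 3 arrays of at least 1 group were kept (12374 of 47293). The filter can keep a probe through the 1 group in which it is high. Among the members called between SOX2 and NANOG silencing, SLC2A12 and SLC24A1 passed only through the OCT4 and SOX2 groups. SLC7A3 and SLC38A5 passed only through the mock and NANOG groups. The calls of these members thus follow in part from the filter. limma 3.58.1 in R 4.3.3 was fitted to all 12 arrays with an intensity trend and robust variance, with Benjamini-Hochberg adjustment over all probes tested. A probe was called at an adjusted p under 0.01 and 1.5-fold. The fit was tested on simulated data. A probe undetected on every array of a group was given a bound, with the dim group set on each array to the higher of its own signal and the lowest signal among detected probes. Undetected probes could lie above that lowest signal, so a bound is approximate. The number of arrays limits the precision.

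Samples were grouped by the labels. The members, substrate groups, markers and motifs were chosen with earlier results of these data known. Members named with array values were those at least 2-fold from mock in any knock-down, those at least 1.5-fold from mock in opposite directions in the OCT4 and NANOG knock-downs, and the largest of each substrate group, with all others given by fold or count. SLC2A10 and SLC29A2 array values were added after they were seen. The values of 1 member are not reported here, though it stays in the counts. The authors' ratios and p-values in their gene lists were not used. Only probes named in those lists carry a gene name here, so trophoblast, endoderm and neuroectoderm markers, SLC3A2, SLC3A1 and SLC probes outside the lists were not analysed here. Of the members, 38 were matched to RefSeq genes by accession and 39 in all. Alternatives covered scaling between arrays, background correction, the filter, the variance model, the methods' t-test, the arrays in the fit, each array left out and the replicate number as a block.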

Additional observations from a re-analysis of the deposited data

How the results depend on the processing

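Between the SOX2 and NANOG knock-downs 21 of the 36 OCT4 members were called, and 19 to 22 when single arrays were left out (11 to 14 higher, 7 to 8 lower). Without background correction, with log2 of the signal + 16, the count was 10 (6 higher and 4 lower), and the members more than 1.5-fold from mock numbered 14, 5 and 15 with OCT4, NANOG and SOX2 silencing in place of 31, 12 and 30. That setting leaves the background in the signal, which lowers every ratio. With single arrays left out these 3 counts ran from 30 to 33, 10 to 12 and 27 to 33. None of the 4 NANOG members was called between the OCT4 and SOX2 knock-downs under any of the 22 alternatives. The labels do not number the replicates. After removal of group means, arrays of different groups correlated at -0.3 to 0.31 with the same number in their file. With different numbers they correlated at -0.33 to 0.31, so these ranges showed no pairing by number. With the replicate number as a block the count was again 21 and no call of a member changed.

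Under median scaling the median change of all probes was -0.163 in the OCT4 k.d. and -0.142 in the SOX2 k.d. against mock, in place of -0.0305 and -0.0408, and 1262 probes were called higher and 2035 lower with OCT4 silencing in place of 1704 and 1328. The split was 440 and 598 with NANOG silencing in place of 604 and 515, and 1344 and 1614 with SOX2 silencing in place of 1658 and 1291. Without scaling the median was 0.652, 0.204 and 0.26 with OCT4, NANOG and SOX2 silencing, with 6945 called higher and 295 lower, 1241 and 238, and 3123 and 532. Between SOX2 and NANOG it was 0.0599, with 1853 higher and 788 lower in place of 1439 and 1185. Between OCT4 and SOX2 it was 0.378, with 905 higher and 0 lower in place of 8 and 0.

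Signs turned for some differences. SLC2A10 between OCT4 and SOX2 was -0.056 with median scaling, -0.00678 without background correction and -0.036 with the methods' t-test values, and -0.27 to 0.159 with single arrays left out. Without scaling SLC1A3 was 0.121 between OCT4 and mock, in place of -0.66, and 0.326 between OCT4 and SOX2, SLC6A8 0.379 between OCT4 and SOX2, and SLC31A1 0.0147 between SOX2 and NANOG. SLC16A10 between SOX2 and NANOG was -0.109 with the t-test values and -0.0588 to 0.396 with single arrays left out. Leaving out single arrays also gave SLC26A2 -0.0353 to 0.246 between SOX2 and NANOG, and between OCT4 and SOX2 SLC6A8 -0.0792 to 0.0315 and SLC1A3 -0.184 to 0.0266. The cause was not tested. Over all alternatives, the tested differences kept their direction and side of the threshold in 824 instances. They missed the threshold in 28, newly passed it in 10 and turned sign in 18. The described changes against mock stayed within the combined SD of the 2 groups in 2491 instances and moved further in 257. A turn of sign was counted only where the change was called in the main fit, which held in 1 instance. Sign turns of uncalled changes are within the other counts. Of those that moved, 102 were without scaling, 66 without background correction and 38 with the authors' group means, where 71 stayed. A slide block was not run, and the settings for background-subtracted signals did not apply. Calls over all SLC probes of the array were not made.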
